A study of Homo sapiens with 36 samples.

Results

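The 81 human genes that encode cytoplasmic ribosomal proteins were examined at their promoters for binding of V5-tagged HIF-α, mapped by Cut&Run in 786-O cells. The members were taken by symbol from the 20033 protein-coding genes of GENCODE release 44 on chromosomes 1 to 22, X and Y. They are the genes named RPL or RPS plus digits, with an optional ending A, L or X, together with RPLP0 to RPLP2 and RPSA. Ribosomal S6 kinases and genes on chromosome Y were left out. Of these genes, 49 encode proteins of the large subunit and 32 proteins of the small subunit. A member was called in a library when a deposited peak had its summit within 1000 bp of the transcription start site (TSS) of its canonical transcript.

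786-O is a clear cell renal carcinoma line without functional VHL, so that HIF-2α is not degraded in normal oxygen, and it lacks functional HIF-1α. All 6 lines derive from these cells, and each gave 3 anti-V5 libraries, labelled biological replicates, with a mouse IgG library of the same replicate as control. WT cells carry no tag and give the background of the antibody. In the HIF-2α knock-in line (KIN), V5 and Halo tags sit on the endogenous protein, and the line is a single homozygous clone, A31. The other 4 lines carry a stably integrated transgene, in which an L30 promoter drives a V5- and Halo-tagged protein that is expressed unevenly from cell to cell. They express HIF-2α, HIF-1α or a chimera. The parental cells make untagged HIF-2α of their own, whose level in these lines was not examined here. HIF-2α/1α joins residues 1 to 365 of HIF-2α to residues 364 to 826 of HIF-1α. HIF-1α/2α joins residues 1 to 363 of HIF-1α to residues 366 to 870 of HIF-2α. The N-terminal part holds the DNA-binding and dimerization domains (DBD for short) and the C-terminal part the intrinsically disordered region (IDR).

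Ribosomal proteins assemble with rRNA into the small and the large ribosomal subunit. Their genes are transcribed at high rates in growing cells, from compact promoters that mostly lie in CpG islands, and their mRNAs mostly start with a C followed by pyrimidines, the 5′ terminal oligopyrimidine (TOP) tract through which mTORC1 controls translation. HIF-1α and HIF-2α pair with HIF-1β and recognize the hypoxia response element (HRE), whose core is ACGTG or GCGTG. Ribosomal protein genes are not classical HIF targets, whereas genes of glycolysis are.

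The sequences below show the HRE cores closest to the peak summits of RPL3, which was called in every tagged library, and of 4 members whose summits lay close to an HRE core, chosen after their values were seen. All are from hg38, written 5′ to 3′ on the strand of the gene, and capitals mark ACGTG or GCGTG in either orientation. RPL3 is shown at chr22:39319734-39319758 on the minus strand, where overlapping cores lie around position −123 from the TSS (negative positions are upstream). The other stretches are RPL23A at chr17:28719569-28719649 (plus), RPS10 at chr6:34426215-34426295 (minus), RPL13A at chr19:49487483-49487507 (plus) and RPL27 at chr17:42998347-42998371 (plus). Stretches of 25 bases overlap an exon of some annotated transcript, and those of 81 bases do not.
RPL3: gagcggaagaGCGTGCGTGgaaatg
RPL23A: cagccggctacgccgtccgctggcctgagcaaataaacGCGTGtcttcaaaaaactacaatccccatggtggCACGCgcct
RPS10: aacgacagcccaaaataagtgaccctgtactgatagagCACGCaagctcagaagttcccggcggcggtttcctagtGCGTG
RPL13A: aatctctgcgCACGCgcagaacgct
RPL27: cacacaatcaGCGTGgcaaagcctg

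The tagged lists held 3984 to 20808 peaks and the WT lists 392 to 9508, at an inferred depth of 0.253 to 0.625 and 0.241 to 0.302 fragments per base. The lists differ in length, so each count of members is given beside the share of all protein-coding promoters called by the same rule. Absence of a call leaves binding undecided. Replicate 2 had the longest list in each of the 6 lines. WT replicate 2, with 9508 peaks, stood apart from the other WT lists, and HIF-2α replicate 2, with 20651 peaks, stood apart from HIF-2α replicates 1 and 3, with 6590 and 5906. The amount of tagged protein in each line is not in these files, so its part in the differences between lines was not tested.

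Few ribosomal protein promoters were called in the WT libraries, and a minority of them in every tagged library (plot of shares by library). In WT, 0, 1 and 1 of the 81 members had a peak in replicates 1, 2 and 3. The 2 members, beside 3.77% of all promoters called in at least 1 WT library, were RPS2, called in replicate 2 with a fold enrichment of 8.65, and RPL29, called in replicate 3 with a fold of 6.45. WT replicate 2 had more peaks than KIN replicates 1 and 3, which called 2 and 8 members, and called only RPS2. It also called fewer promoters of all protein-coding genes, 714 beside 841 and 1660 in those KIN libraries. Its lower member count thus went with a lower count over all promoters. In KIN, 2, 11 and 8 members were called in replicates 1, 2 and 3, a mean of 8.64% ± 5.66 (SD, n = 3), beside 8.04% ± 3.72 of all promoters. Endogenous HIF-2α thus had peaks at ribosomal protein promoters at the rate of promoters at large, and the difference of 0.604 points was smaller than its SD of 2.03.

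In the exogenous lines the share was above that of all promoters in 11 of 12 libraries. With HIF-2α, 6, 30 and 6 members were called (17.3% ± 17.1), beside 12.7% ± 9.56 of all promoters. Replicate 2 alone raised this mean, since the other replicates gave 7.41% each. With HIF-2α/1α, 26, 35 and 22 members were called (34.2% ± 8.22, beside 23.1% ± 5.41). HIF-1α gave 29, 35 and 30 members (38.7% ± 3.97, beside 24.5% ± 2.24), the highest mean of the 6 lines. HIF-1α/2α gave 21, 21 and 22 members (26.3% ± 0.713, beside 18.1% ± 2.73). Over the 12 libraries the members exceeded all promoters by 9.53 points ± 5.43 (SD, n = 12), a ratio of mean shares of 1.49.

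**Figure D1:**
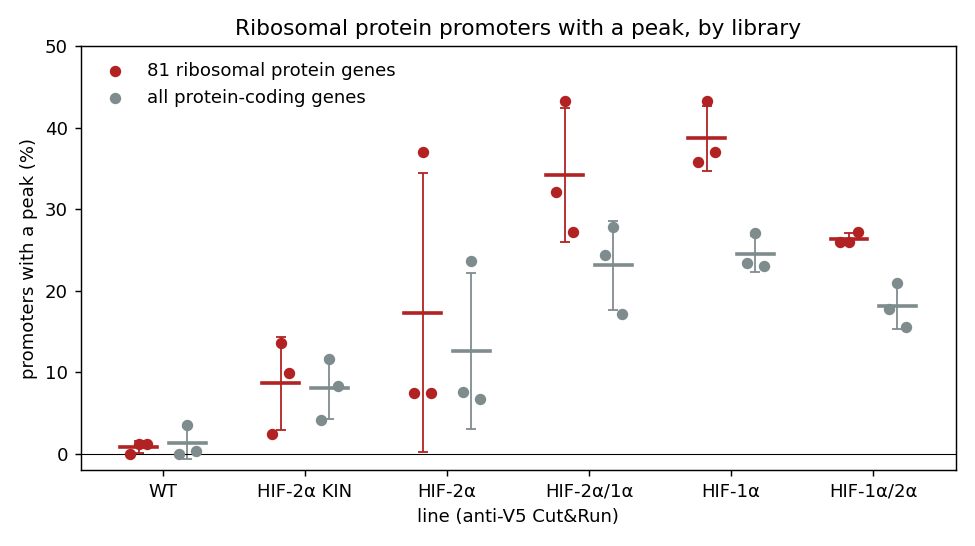
Percent of promoters with a peak in each anti-V5 library, for the 81 ribosomal protein genes (red) and all 20033 protein-coding genes (grey), by line. Points are libraries, bars and whiskers the mean and SD of 3 libraries. The red points lie above the grey ones in HIF-2α/1α, HIF-1α and HIF-1α/2α, and around them in WT and KIN.

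This excess lay in the weaker peaks of each list. Every tagged list was shortened to its 3984 peaks with the highest −log10 p, the length of the shortest tagged list. Members were then called at 5.97% ± 1.81 and all promoters at 5.85% ± 0.963 in the exogenous libraries (n = 12), and the excess was 0.12 points. The median fold of members' peaks lay between 6.39 and 9.26 in the 12 lists, beside 7.18 to 8.80 for all promoter peaks. On average the median member peak stood at percentile 49.8 ± 5.55 of the folds in its list, and the median promoter peak at 53.3 ± 2.85. Peaks at the promoters of 17 glycolysis genes, listed as a reference for classical HIF targets, stood at percentile 93.8 ± 4.60 and were called at 77.5% ± 7.02 in the same libraries. Ribosomal protein promoters were thus called more often than promoters at large only in the deeper part of the lists, with fold values near the middle of each list.

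Genes of related function were called at rates on either side of the members' 29.1% ± 11.9. The 78 mitochondrial ribosomal protein genes (MRPL and MRPS), which the nucleus encodes for the ribosomes of mitochondria, were called at 24.4% ± 10.0 in the exogenous libraries, 1.24 times the share of all promoters. The 71 genes whose symbol starts with EIF or EEF plus a digit were called at 38.0% ± 10.2, 1.94 times the share of all promoters. They were taken by this prefix alone, so regulators of translation factors that share it are included with the factors. In KIN, the EIF and EEF genes were at 17.8% ± 7.09 and mitochondrial ribosomal proteins at 5.56% ± 5.18, on either side of the 8.64% of the cytoplasmic members.

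Counted by line, 4 members reached a call in 2 or 3 of the KIN libraries, 4.94% of the members beside 6.53% of all promoters. All 4 were of the large subunit, RPL3, RPL10 and RPL22 among them. By the same rule HIF-2α had 8 members (9.88%, beside 9.1%), HIF-2α/1α 26 (32.1%, beside 22.2%), HIF-1α 31 (38.3%, beside 23.6%) and HIF-1α/2α 16 (19.8%, beside 16.6%). All 16 members of HIF-1α/2α were among the 31 of HIF-1α, 51.6% of the latter, and over all promoters 88.8% of the former were called in the latter and 62.5% the other way. HIF-2α/1α and HIF-1α shared 22 members, 84.6% of the former and 71.0% of the latter, beside 81.9% and 77.2% over all promoters. In each of the 4 exogenous lines 5 members reached 2 of 3 libraries, among them RPL3, RPL10, RPL18 and RPL23A, and 3 of the 5, RPL3 and RPL10 included, did so in KIN as well. The 5 are 6.17% of the members, beside 7.45% of all promoters, and the 3 are 3.70%, beside 4.68%. The 7 members RPS2, RPS3A, RPS10, RPS19, RPS20, RPL21 and RPL34 reached it in both lines with the HIF-1α IDR and in neither line with the HIF-2α IDR. They are 8.64% of the members, beside 4.16% of all promoters, and RPS2 was also called in WT replicate 2. No member showed the opposite pattern, which 0.0899% of all promoters did.

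Large- and small-subunit genes were called at about the same rate over the exogenous lines, 28.9% ± 10.5 and 29.4% ± 15.7 (n = 12). In KIN the large subunit stood at 10.9% ± 7.17 and the small subunit at 5.21% ± 4.77. In HIF-1α the order was the other way, with 34.0% ± 5.89 of the large-subunit and 45.8% ± 1.80 of the small-subunit genes. These differences were not tested, since the members were chosen with results of these data known.

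Over the 15 tagged libraries, 59 of the 81 members (72.8%) were called at least once, beside 44.2% of all promoters, and 22 were never called. In 8 or more tagged libraries the shares were 17.3% and 15.0%. In all 15 they were 2.47%, which is 2 members with RPL3 among them, and 1.89%. Members thus exceeded the background among promoters called at least once, and were close to it among those called in most libraries (heat map of folds).

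**Figure D2:**
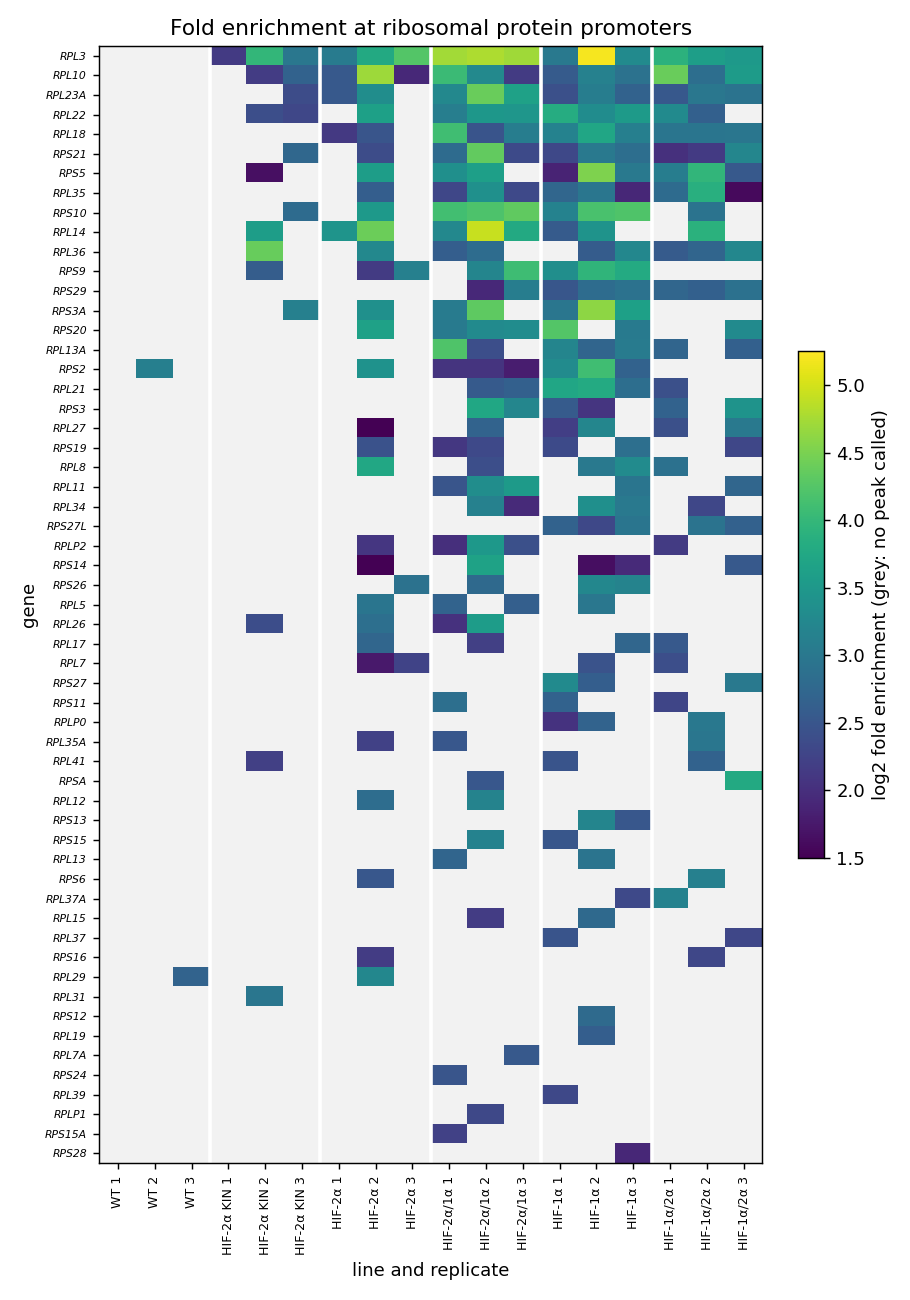
Log2 fold enrichment of the highest promoter peak of 57 of the 59 members called in a tagged library (rows, ordered by the number of tagged libraries with a call) in the 18 anti-V5 libraries (columns). Grey cells have no called peak. RPL3 is filled in all 15 tagged columns, and the WT columns hold 1 cell each for RPS2 and RPL29.

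To ask which promoters depend on the tag, calls in the 15 tagged libraries were compared with calls in the 3 WT libraries for each promoter. RPL3 passed, with 15 of 15 tagged and 0 of 3 WT libraries (Fisher's exact test, two-sided p = 0.00123, the smallest it can give, Benjamini-Hochberg adjusted p = 0.0345 over 8941 promoters). It was among 2 of 59 members tested that passed, beside 3.56% of all promoters tested. A promoter called in 14 tagged and no WT library, such as RPL10, had a p of 0.00490 and an adjusted p of 0.0750, and so no other member could pass. The call for RPL3 was lost when any WT library was left out, and with the replicate number as a block, where no promoter at all passed. In these settings the smallest p that the test can give is larger, 0.00463 with the block. The loss therefore carries no information on RPL3 or on any WT library.

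RPL3 encodes a large-subunit protein that reaches towards the peptidyl transferase centre. Its gene (ENSG00000100316.16, chr22:39312882-39320389, minus strand) had a peak in each tagged library. The deposited fold was 4.39, 15.8 and 7.91 in KIN (replicates 1, 2 and 3). HIF-2α gave 8.33, 13.7 and 19.0, and its chimera HIF-2α/1α 26.4, 27.7 and 26.3. HIF-1α gave 8.12, 36.8 and 9.84, and its chimera HIF-1α/2α 15.0, 12.1 and 11.5. The HIF-2α/1α values stood together above all but 1 other value, HIF-1α replicate 2, and the remaining lines overlapped. The summits held 37 to 293 fragments, a median of 69, and lay at positions −243 to −157. The overlapping HRE cores at RPL3 (printed above) lie 64 bp downstream of the median summit, and in 3 of 15 libraries a core was within 50 bp of the summit.

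RPL10, on the X chromosome, encodes a protein that joins the large subunit late in its maturation. It was called in 14 tagged libraries, all but KIN replicate 1. Its fold was 4.51 and 6.39 in KIN replicates 2 and 3. HIF-2α gave 5.85, 26.1 and 3.83, and its chimera HIF-2α/1α 16.6, 9.64 and 4.45. HIF-1α gave 5.99, 8.82 and 7.56, and its chimera HIF-1α/2α 21.0, 7.24 and 11.8. Replicates of a line differed as widely as lines. Its summits were spread from −362 to 416 bp from the TSS, and 1 of 14 had an HRE core within 50 bp.

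**Figure D3:**
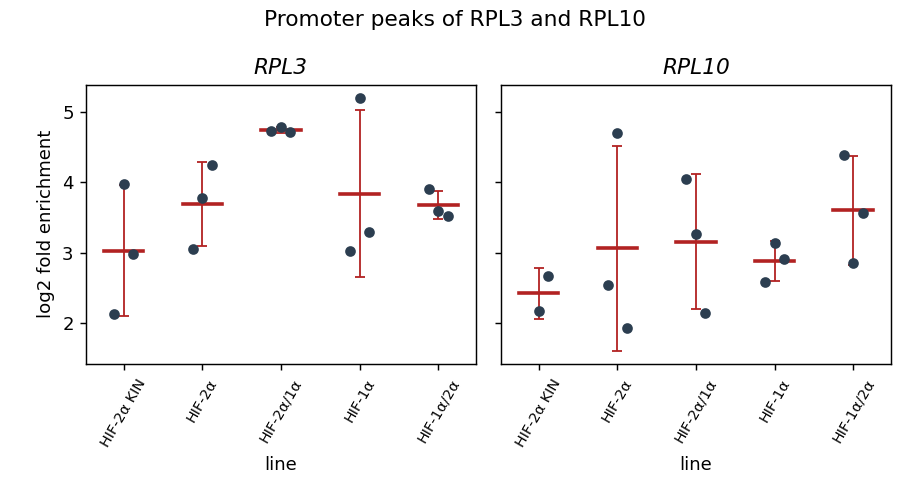
Log2 fold enrichment of the promoter peaks of RPL3 and RPL10 in the 5 tagged lines. Points are libraries with a call (RPL10 has 2 in KIN, all other lines have 3), bars and whiskers mean and SD. HIF-2α/1α stands tightest and highest by its mean at RPL3, and the lines overlap at RPL10.

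The 4 exogenous lines combine 2 IDRs with 2 DBDs, each combination in a single line. The 6 libraries of an IDR or a DBD are therefore repeats of 2 lines. Effects of tagged protein level or list length in those lines cannot be told apart from effects of the domain. Lines with the HIF-2α IDR called 21.8% ± 11.9 of the members, and lines with the HIF-1α IDR 36.4% ± 6.28 (n = 6 libraries each), a difference of −14.6 points. It was −17.3, −11.7 and −14.8 points within replicates 1, 2 and 3. All promoters moved the same way, from 23.8% with the HIF-1α IDR to 15.4% with the HIF-2α IDR. In relative terms the HIF-2α IDR kept 0.599 of the member share and 0.646 of the share of all promoters, so the members followed the promoters at large. In lists of equal length the difference for the members was −2.06 points. The DBD difference, HIF-2α minus HIF-1α, was −6.79 points, smaller than the SD of either group, and its sign was not the same within replicates, at −11.1, 5.56 and −14.8 points.

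Member by member, 42 of the 58 members called in an exogenous library had more calls with the HIF-1α IDR and 5 more calls with the HIF-2α IDR. The 42 were 72.4% of those members, beside 68.2% of all promoters. RPS2 differed most, at 1 of 6 calls for the HIF-2α IDR against 6 of 6 for the HIF-1α IDR (Fisher's exact test, p = 0.0152, adjusted p = 0.925). It was also called in untagged cells, in WT replicate 2. No promoter, member or not, passed an adjusted p of 0.05 in this test, and 143 of 8726 promoters had an unadjusted p below it.

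The strength of peaks was compared where a promoter was called in all 12 exogenous libraries, which held for 3 members, RPL3 and RPL10 among them. On log2 fold, centred on the median of the 656 promoters fitted, none of these 3 passed for the IDR with limma, beside 0.457% of all promoters tested. For RPL10 the centred log2 difference, HIF-2α IDR minus HIF-1α IDR, was 0.92 ± 0.34 (SE, adjusted p = 0.224 in limma). The mean log2 folds of RPL10 were 3.33 and 3.02 before centring. RPL3 differed by −0.00 ± 0.34 (adjusted p = 0.998 in limma), and its mean log2 folds were 3.69 and 4.29 before centring. For the DBD none of the 3 passed, beside 3.2% of all promoters, and RPL3 had the smallest p, with 0.45 ± 0.34 (limma adjusted p = 0.575). The DBD difference was −0.14 ± 0.34 for RPL10. Exogenous and endogenous HIF-2α were compared at the 2 members called in all 6 libraries. RPL3 differed by 0.26 ± 0.49 (HIF-2α minus KIN, limma adjusted p = 0.970), and neither member passed, beside 0.498% of the 402 promoters tested. In simulated data of this size, differences of 1 log2 unit between IDRs were found at 30.0% of changed promoters, and differences of 0.5 at 2%. Most differences of 1 log2 unit could thus have gone undetected. The simulated noise included differences between lines and libraries, so these rates need not hold for the fit. When fragments at the summit over the depth replaced the fold, RPL3 passed for the IDR. Its centred difference, HIF-2α IDR minus HIF-1α IDR, was 0.37 ± 0.12 (limma adjusted p = 0.0348). No other member passed, beside 19.6% of the 637 promoters tested in this way. The difference is relative to the median promoter fitted, and so does not give the direction before centring.

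Other members were called in some tagged libraries only. RPL23A, a large-subunit protein near the exit of the peptide tunnel, had 12 calls, 8 of them with an HRE core within 50 bp of the summit. RPL18, RPL22 and RPS21 had 11 calls each. The RPL18 promoter also holds the TSS of SPHK2, and that of RPL35, with 10 calls, the TSS of ARPC5L, so that peaks there cannot be given to either gene alone. In all, 14 members have the TSS of another protein-coding gene within 1000 bp. RPS10, a small-subunit protein, had 9 calls with folds from 7.03 to 20.1, and an HRE core lay within 50 bp of the summit in each. Its calls covered all 6 libraries with the HIF-1α IDR, at 8.98 to 20.1, and 1 in each of KIN, HIF-2α and HIF-1α/2α. An HRE core also lay within 50 bp of each summit of RPL13A (7 of 7) and RPL27 (6 of 6), whose cores are printed above. RPS20 and RPS2, with 7 calls each, had no core at any summit.

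The P stalk of the large subunit, built from RPLP0, RPLP1 and RPLP2, recruits elongation factors to the ribosome. RPLP0 was called in 3 tagged libraries, HIF-1α replicates 1 and 2 with folds of 4.14 and 6.45 and HIF-1α/2α replicate 2 with 8.04. RPLP1 was called in HIF-2α/1α replicate 2 alone, at 4.96. RPLP2 was called in 5 libraries, at 4.27 in HIF-2α replicate 2, at 4.01, 11.4 and 5.32 in HIF-2α/1α and at 4.46 in HIF-1α/2α replicate 1. No stalk gene had a peak in KIN or WT.

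RPL5 and RPL11 form the 5S ribonucleoprotein with 5S rRNA and, when free, bind MDM2 and thereby stabilize p53. RPL5 was called in 4 libraries, at 7.76 in HIF-2α replicate 2, at 6.50 and 6.19 in HIF-2α/1α replicates 1 and 3 and at 7.96 in HIF-1α replicate 2. RPL11 was called in 5, at 5.63, 10.1 and 11.6 in HIF-2α/1α, at 7.73 in HIF-1α replicate 3 and at 6.67 in HIF-1α/2α replicate 3. Neither had a peak in KIN or WT, and no summit of either gene had an HRE core within 50 bp.

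RPS19, the gene most often mutated in Diamond-Blackfan anaemia, an inherited failure of red cell production, was called in 6 exogenous libraries. Its folds were 5.44 in HIF-2α replicate 2, 4.29 and 5.03 in HIF-2α/1α replicates 1 and 2, 5.06 and 7.28 in HIF-1α replicates 1 and 3 and 4.93 in HIF-1α/2α replicate 3. These stood at percentiles 9.45 to 45.7 of the folds in their lists, and the summits lay at positions −539 to −404 with no HRE core within 50 bp. Of 19 members mutated in this disease, 17 (89.5%) were called in a tagged library, beside 72.8% of all members and 44.2% of all promoters. In at least 2 of 3 libraries, 8 of the 19 (42.1%) were called in HIF-1α and 8 in HIF-2α/1α. The shares by this rule were 38.3% and 32.1% of all members, and 23.6% and 22.2% of all promoters. In KIN none of the 19 reached that rule, beside 6.53% of all promoters, a share at which few of 19 genes would be called.

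Of 4 paralogs with tissue-restricted or stress-related expression, RPS27L alone was called. RPL3L, expressed in muscle, and RPL10L and RPL39L, expressed in testis, had no peak in any library. RPS27L, which p53 induces, was called in HIF-1α at 6.39, 4.97 and 7.75 and in HIF-1α/2α replicates 2 and 3 at 7.60 and 6.33, and in no line with the HIF-2α DBD.

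RPL30 had no peak in any of the 18 libraries. It is of interest because the transgenes are driven by a promoter that the labels name L30. The sources used here do not say whether that promoter comes from this gene. Among the other members with no call in a tagged library were RPL4, RPL6, RPL9, RPL10A, RPL23, RPL24, RPL27A, RPL28, RPL32, RPL36A, RPL38, RPS4X, RPS7, RPS18, RPS23, RPS25 and RPS27A, besides the paralogs RPL3L, RPL10L and RPL39L.

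Where the members had peaks, the summits lay just before the TSS (plot of summit positions). Over the 15 tagged libraries, 304 member summits had a median position of −148 bp from the TSS (quartiles −248 and −40.8), and 81.9% lay upstream. Over all protein-coding promoters the median was −111 bp and 69.2% lay upstream. Summits more than 100 bp downstream made up 3.62% for the members and 18.3% for all promoters. The same promoter gives up to 15 of these summits, so they are not independent.

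**Figure D4:**
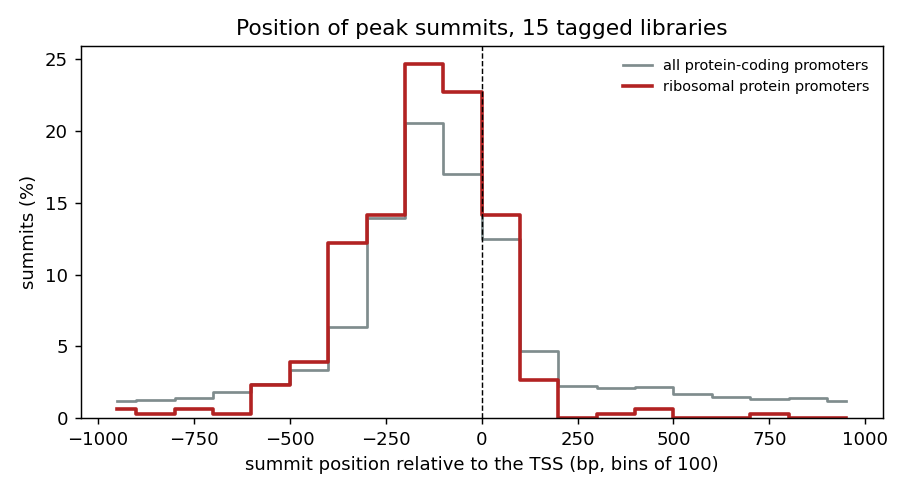
Position of peak summits relative to the TSS in bins of 100 bp, as percent of summits, for ribosomal protein promoters (red) and all protein-coding promoters (grey) in the 15 tagged libraries. Negative positions are upstream. The red line is higher just before the TSS and close to 0 beyond 200 bp downstream.

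The promoters were also compared by sequence, in the window from 250 bases before to 50 bases after the TSS on hg38. A C at the TSS followed by 4 pyrimidines, as in a TOP mRNA, was found at 58 of the 81 members (71.6%) and at 4.59% of all protein-coding genes. An HRE core (ACGTG or GCGTG, both strands) was present in 57 members (70.4%) and in 56.5% of all promoters. The ETS motif CCGGAAG, searched on both strands, was present in 34.6% of the members and 14.1% of all promoters, and the YY1 motif AAGATGGCG in 9.88% and 2.84%. The GC box GGGCGG was present in 61.7% and 61.3%. The E-box CACGTG, which contains an HRE core, was present in 6.17% and 8.76%, TATAAA in 8.64% and 9.71%, and the AP-1 motif (TGACTCA or TGAGTCA) in 1.23% and 3.57%.

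Members with an HRE core in this window were called more often than members without (plot of shares with and without a core). In the exogenous libraries 35.5% ± 15.1 of the 57 with a core and 13.9% ± 5.98 of the 24 without were called, a difference of 21.6 points ± 12.1 (SD, n = 12), and the share was higher with a core in 11 of 12 libraries. The exception was HIF-2α replicate 3, with 7.02% and 8.33%. Over all promoters the shares were 26.1% and 11.2%, a difference of 14.9 points ± 4.57. In KIN the difference was 6.36 points ± 2.49 for the members and 6.92 points ± 2.65 for all promoters (n = 3). Without a core, members were thus called close to the rate of all promoters without a core, and the excess of the members stood mainly among those with a core.

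**Figure D5:**
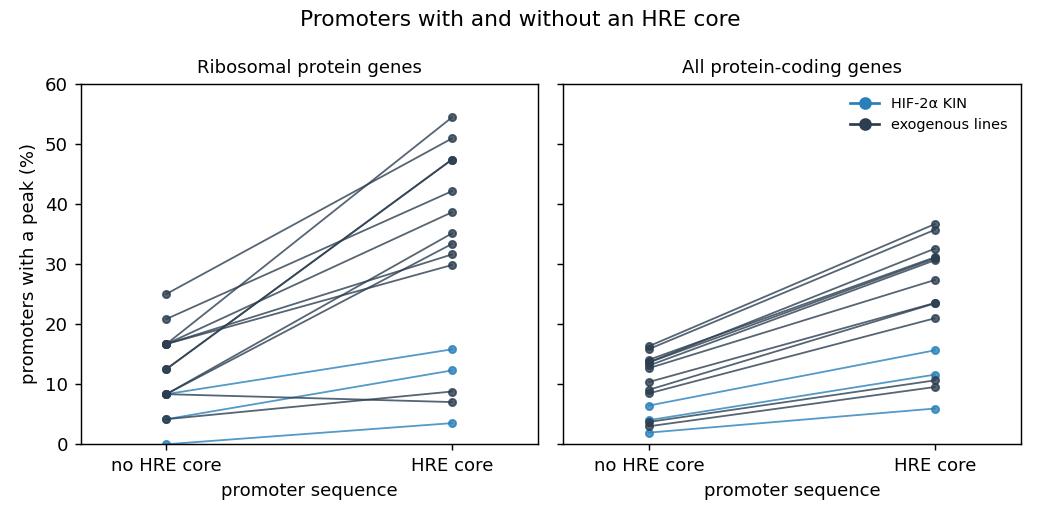
Percent of promoters with a peak among those without and with an HRE core from 250 bases before to 50 bases after the TSS, for the 81 members (left) and all protein-coding genes (right). Each line joins the values of 1 tagged library. In the exogenous libraries the member share rises from a mean of 13.9% to 35.5%, and 1 line falls.

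A core in the promoter did not mean a core under the summit. In the exogenous libraries 34.0% ± 15.0 of the member peaks had an HRE core within 50 bp of the summit, beside 41.5% ± 2.15 of all promoter peaks, and in windows 1000 bp to each side 19.9% and 18.1% had one. By line the members' mean was 30.0% ± 26.5 for HIF-2α and 37.7% ± 11.0 for HIF-2α/1α. It was 26.1% ± 8.54 for HIF-1α and 42.4% ± 10.3 for HIF-1α/2α. In KIN it was 46.6% ± 17.9 over 21 peaks. The member value lay above that of its flanks in 11 of the 12 exogenous libraries, and in HIF-2α replicate 3 none of 6 member peaks had a core.

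Calls moved with base composition. Promoters were divided by their number of CG dinucleotides into 3 classes, with at most 15, 16 to 29 and over 29. In the exogenous libraries members were called at 12.5% ± 9.65 in the lowest class (10 members), 26.9% ± 12.5 in the middle class (56 members) and 48.3% ± 15.6 in the highest (15 members). All promoters were at 4.57% ± 1.73, 24.7% ± 8.88 and 30.0% ± 10.4. Members and all promoters were closest in the middle class, which holds most members. The part of base composition in the HRE difference was not tested.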

How the data were processed

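Cut&Run was performed in 6 lines of 786-O cells with anti-V5 and mouse IgG. Per the study's methods and the submitters' processing notes, the authors aligned reads to hg38 with Bowtie2 2.3.4.1, called peaks with MACS2 in each anti-V5 library against its IgG library, and removed blacklisted regions with bedtools 2.28.0, without pooling replicates. Each deposited list gives the fold enrichment (a ratio) at the summit, its −log10 p-value and −log10 q-value, and the summit offset. No library totals are given, so the fragments at summits and the depth were inferred from each peak's deposited fold together with its −log10 p-value. This matched 99.2% to 100% of peaks, within 0.01 or, for the peaks with the highest −log10 p, within a wider tolerance. Where a promoter had several peaks, the highest fold was used. At a fixed q-value the lists differ in length, and peak values from different lists are on their own background.

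The members and gene lists were chosen with earlier results of these data known. Shares over members have no test. Single promoters were tested with Fisher's exact test on calls, and with limma 3.58.1 (eBayes with trend, R 4.3.3) on log2 fold in promoters called in every library of the comparison, with DBD and IDR as factors, in both cases with Benjamini-Hochberg adjustment over all promoters fitted. Scripts were tested on simulated data, and Python 3.11.15 with SciPy 1.17.1 was used. Named by rule were members called in all 15 tagged libraries, those tested in limma, the stalk, 5S and paralog genes, RPS19, RPL30 and members without calls. Others named were chosen after their values were seen, and values of some members are not reported here. Alternatives were other TSS sets, a window of 500 bp, a −log10 q of at least 5, lists cut to at most 3984 peaks, members with a neighbouring TSS left out, a wider symbol rule, a replicate block, no centring, summit fragments, incomplete calls, a wider motif window and leaving out each library. IgG libraries enter only through the authors' calls.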

Additional observations from a re-analysis of the deposited data

Results flagged for a closer look

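The RPL3 fold of 36.8 in HIF-1α replicate 2 stood far above the other 5 libraries with the HIF-1α DBD, which lay between 8.12 and 15.0. It was the only such case among 12 groups of 6 libraries examined (the member share and the fold of each member called in every tagged library, by IDR and by DBD), and the 95% critical value of Dixon's test is passed by chance in about 1 in 20 groups. That library also had the longest HIF-1α list, with 20572 peaks. The part of the list length in this value was not tested.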

How the results depend on the processing

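With lists cut to at most 3984 peaks, the tagged minus WT difference in the member share moved from 24.2 to 4.69 points. The excess over all promoters in exogenous libraries moved from 9.53 to 0.12. The IDR difference moved from −14.6 to −2.06, and the IDR difference in the excess from −6.20 to −0.31. WT replicates 1 and 3 hold only 392 and 743 peaks, so tagged and WT lists still differed in length. The other alternatives kept these differences within the spread between replicates, and leaving out single libraries gave 22.9 to 25.8, 8.93 to 10.4, −17.7 to −11.7 and −7.58 to −4.87 points. The IDR difference was largest without HIF-2α replicate 2. The 2 members past the test against WT became 0 without WT replicate 1, 2 or 3 and 0 with a replicate block, and leaving out single libraries gave 0 to 3. Without a WT library or with the block, the smallest p that the test can give is larger. These losses therefore carry no information on the members. No member passed in limma for the DBD or for exogenous against endogenous HIF-2α under any alternative. For the IDR 1 passed with summit fragments in place of fold, and 0 under the others, including Fisher's test on calls. Over all promoters the limma calls for the IDR were 3, and 0 to 125 over the alternatives. For the DBD they were 21, and 6 to 130, and for exogenous against endogenous 2, and 0 to 6. The replicate block as a fixed term gave 7, 32 and 0 calls, 0 of them members, and the mean IDR difference within replicate numbers was −14.6 points. Deviations from line means correlated at −0.03 to 0.16 over 18 same-number pairs (median 0.04, 4 above 0.1) and at a median of −0.03 over 36 other pairs, and 10 of 12 libraries were nearest to one of their own number, a hint from the data, not the design, that numbers share a weak deviation. Since not every pair passed 0.1, the numbers were not taken as pairs. List length did go with the number, since replicate 2 had the longest list in each of the 6 lines. The deficit of HRE cores at member summits, −7.49 points, lay within its spread of 16.1 points. The cause of these changes was not tested. Few member promoters were called in every library, which limits the tests of peak strength to 3 members.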
